A study of Drosophila melanogaster with 17 samples.

Results

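The genes described here are 9 genes of ribosome biogenesis in adult Drosophila melanogaster, taken by their symbols (Fib, nop5, Nop60B, Nopp140, mod, pit, RpI135, RpI1 and Tif-IA) from the 14095 loci counted in every library. The series compared dissected fat body, midgut and whole gut in 17 poly-A RNA libraries from 8 groups. Fat body is a storage organ of fly metabolism that also secretes blood-borne proteins, and was taken at 50 days of age (old, 3 libraries), at 5 days with RNA interference against Lam (Lam-RNAi, 2 libraries) and at 5 days (young, 2 libraries). Midgut, where food is digested and taken up, was sampled at the same ages and under the same 3 labels (2 libraries for each of the 3 groups). Whole gut was taken at 40 days (old) and 5 days (young), with 2 libraries each. Old flies were aged naturally with no treatment, and the 6 young libraries are described as wildtype controls. Strain, sex, driver line, the tissue that carried the interference and any pooling of flies were not given in the sources used here. Lam encodes lamin-B, which forms filaments beneath the nuclear envelope.

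Ribosomes are built in the nucleolus, where RNA polymerase I copies the ribosomal RNA genes and the transcript is trimmed, chemically modified and packed with ribosomal proteins. Guide RNAs held in box C/D particles direct methylation of the ribosomal RNA, and those in box H/ACA particles direct its conversion to pseudouridine. The transcription factor Myc, encoded by dm in the fly, is known to raise the expression of many of these genes in growing cells, and in the gut such growth accompanies stem cell division and the enlargement of young enterocytes. The libraries hold messenger RNA and do not measure ribosomal RNA itself.

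Fib encodes fibrillarin, the methylase of box C/D particles, and spans 18960414 to 18962243 on the minus strand of 2R. The gene of another box C/D core protein, nop5, spans 6916753 to 6918741 on the minus strand of 2L. Nop60B encodes the pseudouridine synthase of box H/ACA particles (2R, 20062250 to 20073866, plus strand). Nopp140, a nucleolar phosphoprotein that binds both kinds of particle, lies at 21825845 to 21829785 on 3L (plus strand). The nucleolar nucleic-acid-binding protein modulo, mod, lies at 27877794 to 27880696 on 3R (plus strand), and the DEAD-box RNA helicase pitchoune, pit, at 17860020 to 17864114 on the same strand of 3R. RpI1 encodes the largest subunit of RNA polymerase I (2R, 10483114 to 10488702, minus strand) and RpI135 the large subunit that forms the catalytic centre with it (2L, 404286 to 408049, plus strand). Tif-IA, a polymerase I initiation factor that relays growth signals, lies at 22249878 to 22258260 on 2L (plus strand). Positions are those of the deposited files, which name chromosomes as release 5 of the genome does.

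Some of these values are uncertain because reads of overlapping genes cannot be told apart when the handling of exons and strand is not known. All 1989 bases of nop5 lie inside xl6 on the same strand, and xl6 reached at most 18.5 CPM, below nop5 in 17 of 17 libraries. The gene BG4 (1127 bases, same strand, at most 12.2 CPM) lies inside pit, which also shares 97 bases with CG6015, a gene below pit in 11 of 17 libraries. RpI135 shares 27 bases with alpha-Adaptin, which was above it in 17 of 17 libraries (48.8 to 177 CPM), and RpI1 shares 13 with CG12869. Fib and Nop60B host 1 and 7 entries of small nucleolar RNAs, none above 0.609 CPM in any library. Nopp140, mod and Tif-IA overlapped no other entry. CPM values of the overlapping entries are counts-per-million of total counts, without the correction for library composition used for the other levels.

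The libraries held 31637135 to 78289614 counts, and 10383 to 12670 genes were detected in each. The members were well above the detection floor: their counts ran from 215 (RpI135, in its lowest library) to 12005 (mod, in its highest), and all 9 entered every test. Levels are counts-per-million after correction for library composition (CPM), and an adjusted p is from edgeR's quasi-likelihood test with Benjamini-Hochberg adjustment over all genes tested, with 0.05 as the threshold. Nothing in the labels says that replicates came from separate flies, although the design text calls them biological, so each p reflects no more than the spread among these libraries, which may be technical. Enterocyte marker genes summed to 31587 to 72571 CPM in the gut libraries and to 784 to 976 CPM in fat body. Fat body markers summed to 8267 to 22236 CPM in fat body and 551 to 1622 CPM in the gut. By these sums each tissue carried the markers of its label, but most of the fat body sum was the gene Rfabg (6387 to 19891 CPM). Between young fat body and young midgut, 3 of the 7 fat body markers were higher in fat body, 1 was lower and 3 did not pass. Fat body libraries also held ovary and germ-line markers (31713 to 111161 CPM, a list with 3 yolk protein genes that female fat body itself expresses) and oenocyte markers (20040.5 to 89446 CPM). In fat body and gut alike, nearly all of the ovary and germ-line sum was the yolk protein genes Yp1, Yp2 and Yp3. In Lam-RNAi fat body replicate 2 these had 45022, 18892 and 27515 CPM, whereas the germ-line gene vas had 17.0 CPM. The targeted gene itself, Lam, had 14.7 and 15.0 CPM in Lam-RNAi fat body, against 32.1 and 32.9 CPM in young fat body, a log2 change of -1.12 ± 0.14 (SE; 2.17-fold lower, adjusted p = 0.00145). In midgut Lam had 33.8 and 32.8 CPM in Lam-RNAi libraries, against 35.0 and 35.3 CPM in young libraries (log2 change -0.11, adjusted p = 0.173), and its change was 0.03 under total-count scaling.

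Across the 8 groups the 9 genes shared a broad pattern. Young whole gut had the lowest mean level of 8 of the 9 genes, and for RpI1 young midgut was lowest and overlapped young whole gut. Lam-RNAi midgut had the highest mean of Fib, nop5, Nop60B, pit and Tif-IA, while a fat body group was highest for Nopp140, mod, RpI135 and RpI1. The highest group mean was 3.58 times the lowest for Fib, 2.97 times for Nop60B and 2.86 times for nop5, and from 1.67 (mod) to 2.20 times (RpI135) for the other 6. For Fib the order ran from Lam-RNAi midgut (46.3 ± 3.31 CPM, SD, n = 2) over old midgut (36.0 ± 1.05), old fat body (30.8 ± 10.1, n = 3), Lam-RNAi fat body (27.6 ± 4.55), old whole gut (27.4 ± 1.71), young midgut (23.1 ± 1.84) and young fat body (22.5 ± 0.786) to young whole gut (12.9 ± 3.14). The libraries of neighbouring groups overlapped from old midgut down to old whole gut, and again between young midgut and young fat body. Of the 7 neighbouring pairs of groups in each gene's order, 3 overlapped for nop5, Nop60B, mod and pit, 4 for Fib, Nopp140, RpI135 and Tif-IA, and 5 for RpI1.

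**Figure D1:**
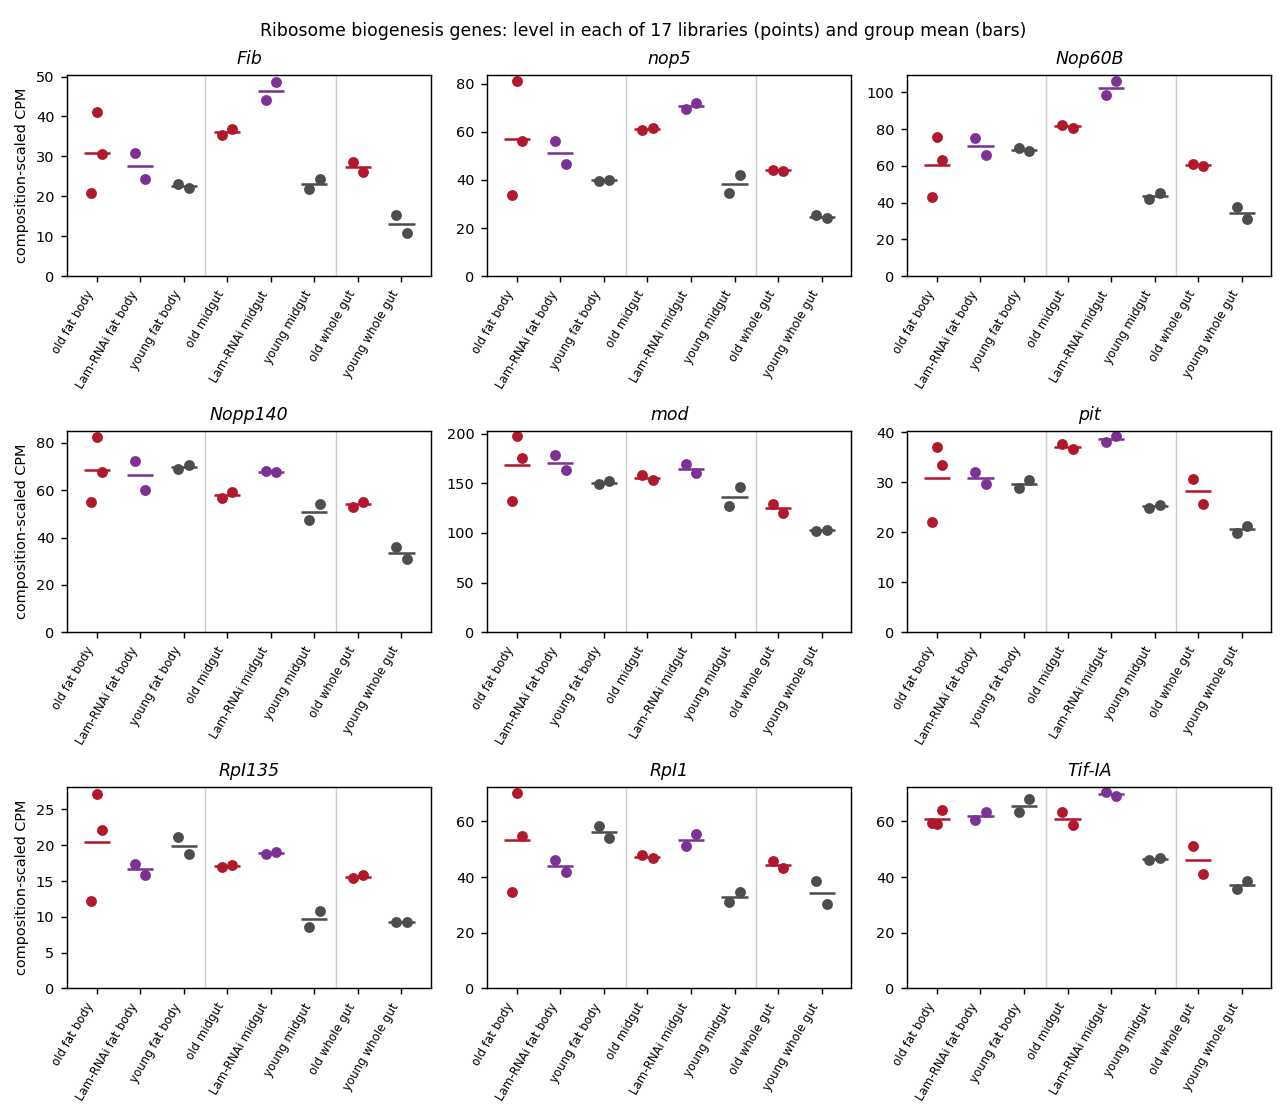
Level of each of the 9 genes in composition-scaled CPM (vertical axis, from 0) in the 17 libraries (points) of 8 groups (horizontal axis), with group means as bars. In midgut and whole gut every old and Lam-RNAi point lies above the young points of the same tissue, whereas the 3 old fat body points of most genes spread across the young ones.

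Per kilobase of exon (release 6 annotation), mod had the highest level of the 9 in all 8 groups, with 44.7 CPM per kilobase in young whole gut, the lowest of its group values, and 74.6 in Lam-RNAi fat body, the highest. RpI135 had the lowest level per kilobase in all 8 groups, between 2.61 (young whole gut) and 5.74 (old fat body). In young fat body the other 7 lay between 10.0 (pit) and 30.6 CPM per kilobase (Tif-IA).

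The midgut comparisons ask how the tissue differs with age and in young flies labelled Lam-RNAi, in whose midgut Lam itself did not pass as lower. In old midgut 7 of the 9 genes rose and none fell, beside 25.0% of all genes tested that rose and 53.7% that changed in either direction. In Lam-RNAi midgut all 9 rose, beside 25.5% of all genes that rose and 29.9% that fell (55.4% in either direction). The median log2 change of the 9 in old midgut was 0.56, against 0.01 over all genes tested, and in Lam-RNAi midgut it was 0.66, against -0.01. Both comparisons use the same 2 young libraries, so their values are set side by side and were not counted as separate evidence.

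Among the genes of the RNA-modifying particles, Fib had 35.3 and 36.8 CPM in old midgut and 44.0 and 48.6 CPM in Lam-RNAi midgut, against 21.8 and 24.4 CPM in young midgut. No library of either group reached down to the young ones. Its log2 change was 0.64 ± 0.08 (SE; 1.55-fold, adjusted p = 2.85e-05) in old midgut and 0.97 ± 0.08 (1.95-fold, adjusted p = 6.04e-07) in Lam-RNAi midgut. For nop5 the levels were 60.9 and 61.5 CPM in old midgut and 69.5 and 71.9 CPM in Lam-RNAi midgut, against 34.6 and 42.2 CPM in young midgut. The groups again did not overlap, and nop5 rose by 0.67 ± 0.09 (1.59-fold, adjusted p = 5.15e-05) in old midgut and by 0.85 ± 0.09 (adjusted p = 6.30e-06) in Lam-RNAi midgut. The gene xl6, which contains nop5, did not pass in either comparison (log2 change -0.22, adjusted p = 0.120 in old midgut, and -0.25, adjusted p = 0.0817 in Lam-RNAi midgut). Nop60B moved most of the 9: it had 82.5 and 80.7 CPM in old midgut and 98.4 and 106 CPM in Lam-RNAi midgut, against 42.1 and 45.4 CPM in young midgut. Each old or Lam-RNAi library was well above both young libraries. Its log2 change was 0.90 ± 0.07 (1.86-fold, adjusted p = 4.31e-07) in old midgut and 1.19 ± 0.07 (2.28-fold, adjusted p = 3.47e-08) in Lam-RNAi midgut.

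The other nucleolar proteins moved less evenly. Nopp140 had 56.6 and 59.2 CPM in old midgut and 68.2 and 67.5 CPM in Lam-RNAi midgut, against 47.6 and 54.0 CPM in young midgut, so the old libraries were close to the higher young one. It passed in Lam-RNAi midgut (log2 change 0.38 ± 0.08, adjusted p = 0.000909) and not in old midgut (0.19, 95% interval 0.02 to 0.35, adjusted p = 0.0558). The levels of mod were 158 and 153 CPM in old midgut and 169 and 160.1 CPM in Lam-RNAi midgut, against 127 and 146 CPM in young midgut. It passed in Lam-RNAi midgut alone (log2 change 0.23 ± 0.08, adjusted p = 0.0210) and had 0.19 (0.02 to 0.36, adjusted p = 0.0566) in old midgut. The Lam-RNAi call of mod was lost without young midgut replicate 1 (0.14, adjusted p = 0.200), without Lam-RNAi midgut replicate 1 (0.19, adjusted p = 0.133) and with all 17 libraries in the fit (0.27, adjusted p = 0.163). For pit the values were 37.6 and 36.6 CPM in old midgut and 38.0 and 39.3 CPM in Lam-RNAi midgut, against 24.8 and 25.5 CPM in young midgut. It rose by 0.56 ± 0.07 (1.47-fold, adjusted p = 1.89e-05) in old midgut and by 0.59 ± 0.07 (adjusted p = 1.04e-05) in Lam-RNAi midgut, and BG4, which lies inside it, was also higher there (0.76 and 0.88).

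The RNA polymerase I genes rose in both midgut groups. RpI135 had 17.0 and 17.3 CPM in old midgut and 18.7 and 19.1 CPM in Lam-RNAi midgut, against 8.63 and 10.8 CPM in young midgut. That is a log2 change of 0.81 ± 0.10 (1.75-fold, adjusted p = 3.18e-05) in old midgut and 0.92 ± 0.10 (1.89-fold, adjusted p = 8.70e-06) in Lam-RNAi midgut, with no overlap between groups. RpI1 had 47.8 and 47.0 CPM in old midgut and 51.2 and 55.4 CPM in Lam-RNAi midgut, against 31.2 and 34.8 CPM in young midgut. Its change was smaller, 0.52 ± 0.08 (adjusted p = 0.000105) in old midgut and 0.66 ± 0.08 (adjusted p = 1.21e-05) in Lam-RNAi midgut. Tif-IA had 63.2 and 58.6 CPM in old midgut and 70.6 and 69.1 CPM in Lam-RNAi midgut, against 46.0 and 46.9 CPM in young midgut. It rose by 0.39 ± 0.07 (adjusted p = 0.000492) in old midgut and by 0.55 ± 0.07 (adjusted p = 2.27e-05) in Lam-RNAi midgut.

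**Figure D2:**
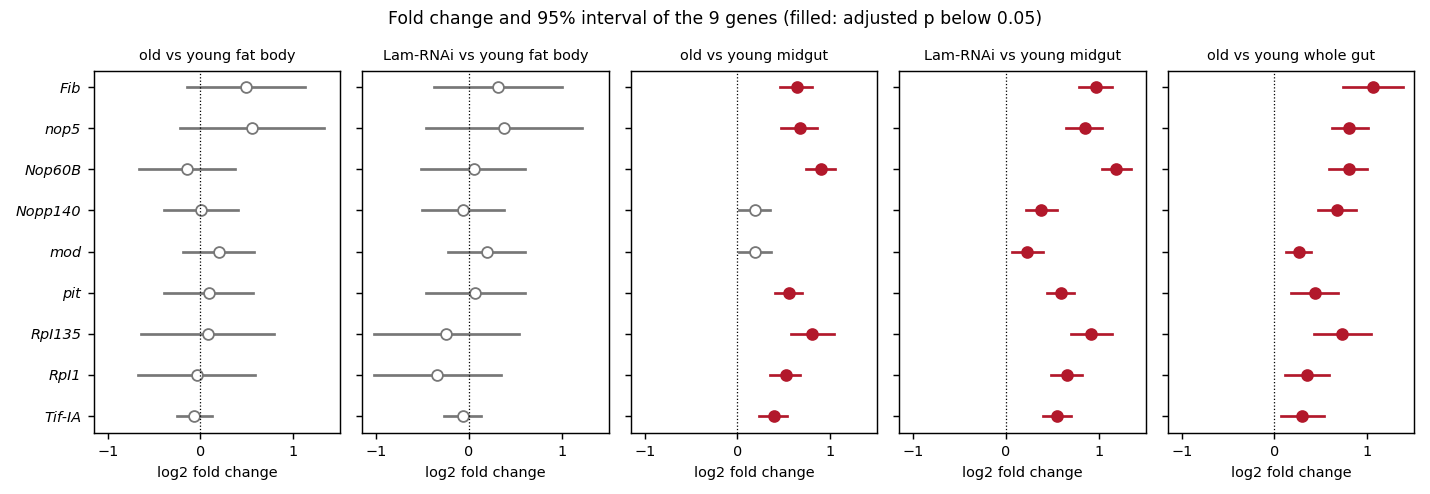
Log2 fold change (horizontal axis) with its 95% interval for each of the 9 genes (rows) in 5 comparisons with young samples (panels). Filled points passed an adjusted p below 0.05. All 9 are filled in Lam-RNAi midgut and old whole gut, 7 in old midgut and none in the 2 fat body panels, where the intervals are wider.

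With all 17 libraries in the fit, 4 of the 9 genes (Nop60B, pit, RpI135 and Tif-IA) passed in old midgut, while Fib (adjusted p = 0.0620), nop5 (0.0822) and RpI1 (0.108) no longer did at the same log2 changes. The fit of all libraries had a biological coefficient of variation of 13.9%, against 6.61% in the midgut fit. For the Lam-RNAi comparison, scaling by total counts alone moved the median of all genes by 0.14 on the log2 scale and the share of calls that were higher to 61.4%, from 46.0%.

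Old midgut was also set against Lam-RNAi midgut. All 9 genes had both old libraries below both Lam-RNAi libraries, but the share of all genes separated in this way was not counted. Of the 9, 2 passed as lower, beside 18.9% of all genes tested that were lower and 36.0% called in either direction. These were Fib (log2 change -0.33 ± 0.08, adjusted p = 0.00540) and Nop60B (-0.30 ± 0.07, adjusted p = 0.00579). The other 7 lay between -0.20 and -0.03. Fib lost the call without Lam-RNAi midgut replicate 2 (-0.26, adjusted p = 0.0757), and Nop60B without that library (-0.25, adjusted p = 0.0822) or without old midgut replicate 2 (-0.27, adjusted p = 0.0674). The count was 0 with all 17 libraries in the fit, and 4 with scaling by total counts alone, under which 27.8% of all calls were higher against 47.4% in the composition-scaled fit.

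Beyond the 9 genes, a list of 57 other genes covered the same pathway and the Myc network, and all 57 were tested in every comparison. In old midgut 53 of the 57 rose and none fell, with a median log2 change of 0.54, and in Lam-RNAi midgut 53 rose and 1 fell, with a median of 0.67. In old midgut the rises took in 2 of 2 box C/D genes, 3 of 3 box H/ACA genes, 5 of 5 further polymerase I genes and 5 of 5 polymerase subunits shared with it. They also took in 12 of 14 genes listed under the small subunit processome and 21 of 23 listed under large subunit assembly. These are classes of the list, and not every gene in them belongs to the complex named. The rises further held 2 of 2 nucleolar histone chaperones and 3 of 3 Myc network genes. The 4 that did not pass were dbe (0.10), CG7686 (LTV1, a small subunit assembly factor, 0.20), eIF6 (0.17) and CG8549 (-0.05), named after their values were seen. The smallest p-values in old midgut belonged to CG7911 (Nph, nucleophosmin, 0.80), Nlp (nucleoplasmin-like, 0.73), CG11660 (the kinase RIOK1, 0.93) and wcd (a component of the small subunit processome, 0.93). In Lam-RNAi midgut the smallest p-values belonged to CG4364 (1.36), CG8801 (the nucleolar GTP-binding protein Non1, 1.44), wcd (1.21) and CG8545 (0.95), all higher. CG8801 had 889.7 and 1045 CPM in Lam-RNAi midgut and 555 and 482 CPM in old midgut, against 357 and 342 CPM in young midgut. Of the 57, 29 share bases with another entry, among them CG7911 and Nlp with each other (77 bases) and CG8545 with dgt5 (3083 bases), all on opposite strands, and their values are uncertain to that extent.

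**Figure D3:**
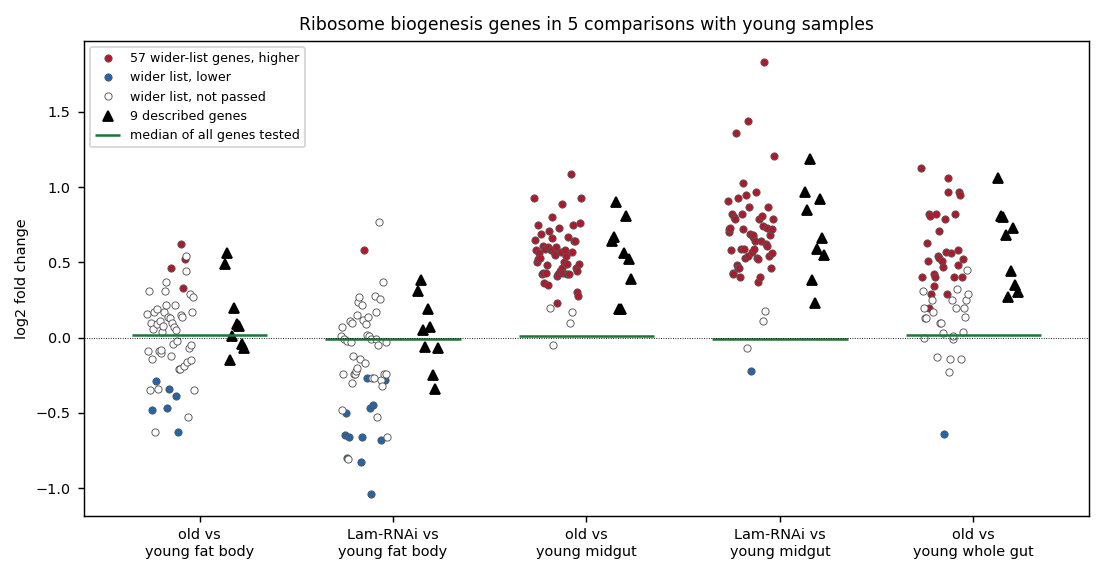
Log2 fold change (vertical axis) of 57 further ribosome biogenesis and Myc network genes (circles, filled where an adjusted p was below 0.05) and of the 9 described genes (triangles) in 5 comparisons with young samples (horizontal axis), with the median of all genes tested as a line. In both midgut comparisons nearly all points lie above the line, with 53 of 57 circles passing as higher.

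The Myc network was followed by its own levels. The gene dm had 96.9 and 81.7 CPM in old midgut and 144 and 161 CPM in Lam-RNAi midgut, against 47.3 and 36.5 CPM in young midgut. It was named after its values were seen, and rose by 1.09 ± 0.13 (2.13-fold, adjusted p = 0.000139) in old midgut and by 1.83 ± 0.13 (3.56-fold, adjusted p = 4.93e-06) in Lam-RNAi midgut. Between the pair of groups dm was lower in old than in Lam-RNAi midgut (-0.74 ± 0.12, adjusted p = 0.00236), as Fib and Nop60B were. Max, the partner with which Myc binds DNA, rose by 0.41 (adjusted p = 0.00272) in old midgut and by 0.69 (adjusted p = 3.71e-05) in Lam-RNAi midgut. Mnt, which competes with Myc for Max, rose by 0.23 in old midgut and fell by 0.22 in Lam-RNAi midgut, a call lost in 6 of 11 alternatives: without young midgut replicate 1, without either Lam-RNAi library, under total-count scaling, with DESeq2 and with all 17 libraries in the fit.

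**Figure D4:**
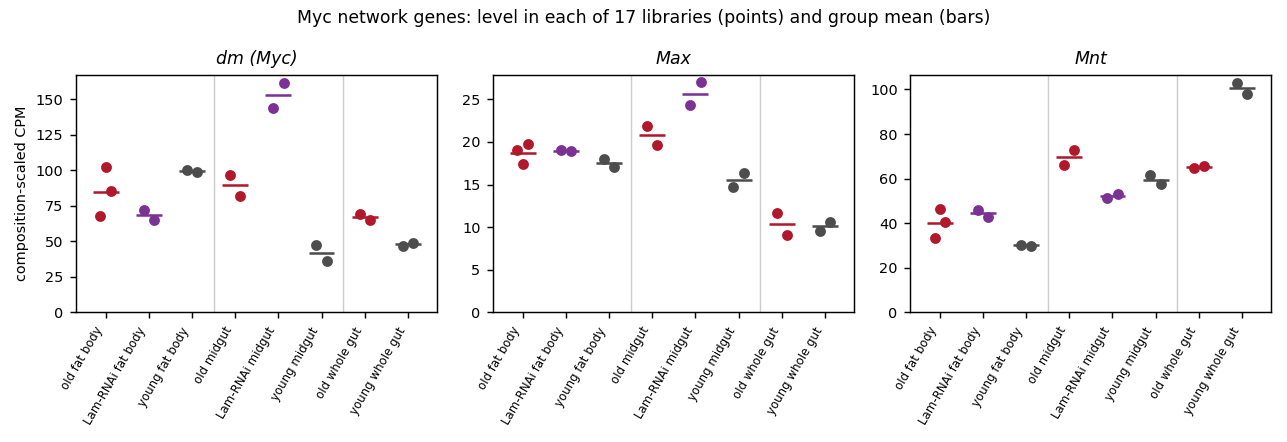
Level of the Myc network genes dm, Max and Mnt in composition-scaled CPM (vertical axis, from 0) in the 17 libraries (points) of 8 groups (horizontal axis), with group means as bars. The dm points are highest in Lam-RNAi midgut (144 and 161 CPM) and lowest in young midgut (47.3 and 36.5 CPM) and young whole gut (46.6 and 49.1 CPM).

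In these bulk libraries a change in the number of cells of a type and a change in RNA per cell cannot be told apart. Intestinal progenitor markers summed to 306 to 309 CPM in old midgut and 330.2 to 358 CPM in Lam-RNAi midgut, against 241 to 297 CPM in young midgut, with 3 of the 6 markers higher and 1 lower in both comparisons. Most of each sum was the gene peb, with 243 and 249 CPM in old and 269 and 301 CPM in Lam-RNAi midgut, against 249 and 203 CPM in young midgut. The stem cell marker esg had 27.2 and 24.3 CPM in old midgut and 25.9 and 22.9 CPM in Lam-RNAi midgut, against 14.8 and 11.4 CPM in young midgut. In the other direction, spdo had 1.01 and 0.526 CPM in old and 0.788 and 0.950 CPM in Lam-RNAi midgut, against 1.63 and 1.67 CPM in young midgut. Ovary and germ-line markers summed to 1067 to 1251 CPM in old midgut and 926 to 973 CPM in Lam-RNAi midgut, against 5363 to 5948 CPM in young midgut. Nearly all of these sums was the 3 yolk protein genes. Oenocyte markers summed to 562 to 571 CPM in old midgut and 445 to 463 CPM in Lam-RNAi midgut, against 3385 to 3889 CPM in young midgut. Markers of further tissues were also lower than in young midgut in both comparisons: 6 of 6 for hemocytes, 4 of 4 for trachea, 7 of 8 for muscle and 6 of 7 for fat body. The remaining muscle and fat body markers were higher in old midgut and did not pass in Lam-RNAi midgut. Over all genes 28.7% were lower in old and 29.9% in Lam-RNAi midgut. The part of these markers in the rise of the 9 genes was not tested.

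Whole gut, an ageing comparison over 5 and 40 days with its own libraries, also had higher levels. All 9 genes rose in old whole gut, beside 20.1% of all genes tested that rose and 43.6% that changed in either direction, with a median log2 change of 0.68 against 0.02 over all genes. Fib had 28.6 and 26.2 CPM in old whole gut, against 15.2 and 10.7 CPM in young whole gut (log2 change 1.06 ± 0.15, 2.09-fold, adjusted p = 6.22e-05). The levels of nop5 were 44.0 and 43.9 CPM in old whole gut, against 25.3 and 24.1 CPM in young whole gut (0.81 ± 0.09, adjusted p = 7.85e-06). Both box C/D genes thus had old libraries well clear of the young ones. The surrounding gene xl6 rose here as well (0.70, adjusted p = 0.00273). Nop60B had 61.1 and 59.8 CPM in old whole gut, against 37.7 and 31.2 CPM in young whole gut (0.80 ± 0.10, adjusted p = 1.66e-05). Nopp140 had 53.1 and 54.8 CPM in old whole gut, against 35.9 and 30.8 CPM in young whole gut (0.68 ± 0.09, adjusted p = 5.69e-05). Its rise was 1.60-fold here and 1.14-fold, without passing, in old midgut.

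RpI135 had 15.4 and 15.8 CPM in old whole gut, against 9.25 and 9.33 CPM in young whole gut (0.73 ± 0.14, adjusted p = 0.000866). The remaining genes rose by less, and none of their groups overlapped. RpI1 had 45.7 and 43.2 CPM in old whole gut, against 38.5 and 30.3 CPM in young whole gut (0.35 ± 0.11, adjusted p = 0.0196). The levels of mod were 129 and 120.2 CPM in old whole gut, against 102 and 103 CPM in young whole gut (0.27 ± 0.06, adjusted p = 0.00412). The helicase gene pit and the initiation factor gene Tif-IA changed by 0.44 ± 0.12 (adjusted p = 0.00866) and 0.30 ± 0.11 (adjusted p = 0.0383). Without old whole gut replicate 1 the count fell to 5, since mod (adjusted p = 0.0946), pit (0.234), RpI1 (0.108) and Tif-IA (0.574) no longer passed, and with all 17 libraries in the fit it was also 5. Of all calls 46.3% were higher in the composition-scaled fit, and 87.9% with scaling by total counts alone, which moved the median of all genes by 0.50.

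Of the 57 further genes, 31 rose and 1 fell in old whole gut, with a median log2 change of 0.34. The rises took in 2 of 2 box C/D genes, 3 of 3 box H/ACA genes and both nucleolar chaperones, but 1 of 5 further polymerase I genes and 1 of 5 shared polymerase subunits. Nop56, the box C/D partner of nop5, had the smallest p-value (1.06, adjusted p = 6.49e-07), followed by Mnt (-0.64, the gene that fell), Nnp-1 (0.97) and Nlp (0.57). The 31 became 16 without old whole gut replicate 1 and 52 with scaling by total counts alone. The Myc gene dm had 69.3 and 65.1 CPM in old whole gut, against 46.6 and 49.1 CPM in young whole gut (0.48 ± 0.08, adjusted p = 0.000263). Mnt had 64.9 and 65.5 CPM in old whole gut, against 103 and 98.0 CPM in young whole gut. Progenitor markers, mostly peb, summed to 288 to 300.0 CPM in old whole gut, against 359 to 387 CPM in young whole gut. The marker esg had 23.2 and 25.5 CPM in old whole gut, against 38.3 and 41.6 CPM in young whole gut. Of the 6 progenitor markers 2 rose (Sox21a by 2.40 and Dl by 0.68 on the log2 scale) and 3 fell (mira by 1.79, esg by 0.73 and peb by 0.32), with a median log2 change of 0.17. Enterocyte markers summed to 31587 to 31738 CPM in old whole gut, against 67010.5 to 72571 CPM in young whole gut, and the part of either marker list in the result was not tested.

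In fat body none of the 9 genes passed with age, beside 38.1% of all genes that passed in either direction, and the 3 old libraries of every gene overlapped the young ones. None had an unadjusted p below 0.05 in edgeR's test, and DESeq2 called none. Fib had 20.8, 41.1 and 30.5 CPM in old fat body, against 23.1 and 22.0 CPM in young fat body (log2 change 0.49, 95% interval -0.15 to 1.13, adjusted p = 0.187). The levels of nop5 were 33.8, 81.0 and 56.2 CPM in old fat body, against 39.6 and 40.0 CPM in young fat body (0.56, -0.22 to 1.33, adjusted p = 0.217). One old library of each was below the young ones and the others above. Nop60B had 42.8, 75.6 and 63.2 CPM in old fat body, against 69.7 and 68.1 CPM in young fat body (-0.15, -0.66 to 0.37). RpI135 had 12.2, 27.2 and 22.1 CPM in old fat body, against 21.2 and 18.7 CPM in young fat body (0.08, -0.64 to 0.79). RpI1 had 34.5, 70.4 and 54.8 CPM in old fat body, against 58.5 and 53.9 CPM in young fat body (-0.04, -0.67 to 0.59). Tif-IA alone was even among the old libraries, with 59.3, 58.9 and 64.0 CPM in old fat body, against 63.2 and 67.9 CPM in young fat body (-0.07, -0.25 to 0.12). Nopp140, mod and pit had log2 changes of 0.01, 0.20 and 0.09.

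Old fat body replicate 1 had the lowest level and replicate 2 the highest level of every member except Tif-IA among the 3 old libraries. These replicates also differed most of any pair in the series, by a chi-square per gene of 336 against 7.73 to 113 in the other pairs. Without replicate 1, 4 genes passed as higher in old fat body: Fib (0.70, adjusted p = 0.00997), nop5 (0.82, adjusted p = 0.00665), mod (0.34, adjusted p = 0.0131) and pit (0.28, adjusted p = 0.0296). Of the 10 ovary and germ-line markers, 5 likewise had their lowest old level in replicate 1 and their highest in replicate 2. One of these was osk, with 33.6, 153 and 105 CPM in old fat body, against 37.2 and 37.8 CPM in young fat body, chosen after its values were seen. The whole list, mostly yolk protein genes, summed to 34313 to 36996 CPM in old fat body, against 31713 to 32649 CPM in young fat body. Of its 9 tested markers 4 rose and none fell. The same order also occurred outside that list. In old fat body replicates 1 to 3 the oenocyte marker eloF had 197, 509 and 366 CPM. The muscle marker Mhc had 609, 1286 and 927 CPM there. The enterocyte marker alphaTry had the reverse order (162, 14.5 and 84.0 CPM). These examples were chosen after their values were seen, and the share of all genes with either order was not counted. The part of any of these markers in the result was not tested.

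**Figure D5:**
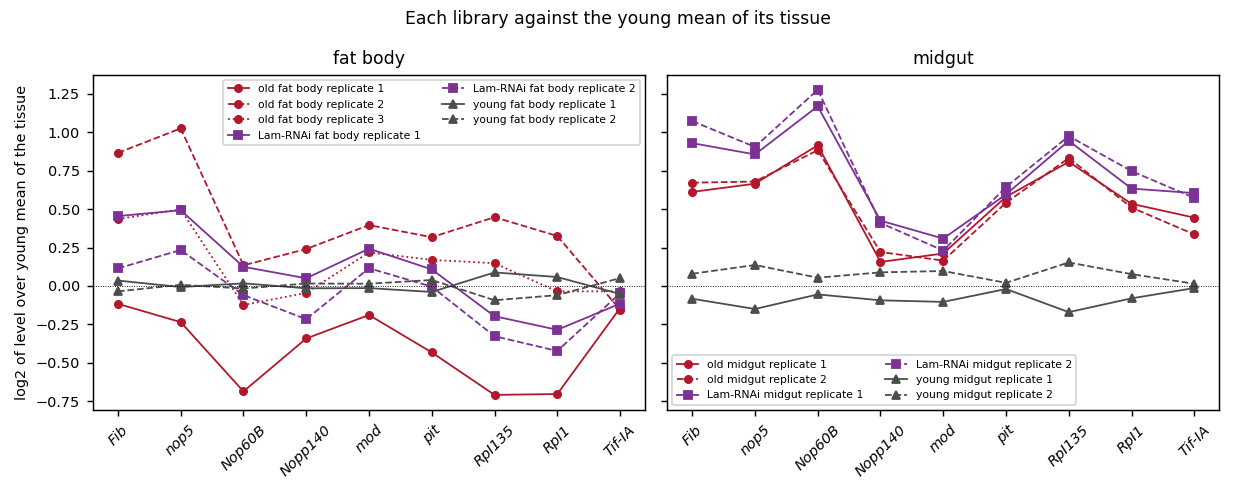
Log2 of the level of each of the 9 genes (horizontal axis) in each library over the young mean of the same tissue (vertical axis), for fat body and midgut (panels). Midgut lines of old and Lam-RNAi libraries run above both young lines, while in fat body the line of old replicate 1 lies lowest for all but Tif-IA and that of old replicate 2 highest for all but Tif-IA.

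Lam-RNAi fat body, in which Lam itself was lower, likewise gave no call among the 9, beside 35.7% of all genes. None had an unadjusted p below 0.05 in edgeR's test, and DESeq2 called none. Fib had 30.9 and 24.4 CPM in Lam-RNAi fat body, against 23.1 and 22.0 CPM in young fat body (0.31 ± 0.29, adjusted p = 0.439). For nop5 the values were 56.0 and 46.8 CPM in Lam-RNAi fat body, against 39.6 and 40.0 CPM in young fat body (0.38, 95% interval -0.46 to 1.22, adjusted p = 0.434). Both Lam-RNAi libraries of Fib, nop5 and mod were above the young ones. RpI135 had 17.4 and 15.9 CPM in Lam-RNAi fat body, against 21.2 and 18.7 CPM in young fat body (-0.25, -1.03 to 0.54, adjusted p = 0.591). RpI1 had 46.1 and 41.9 CPM in Lam-RNAi fat body, against 58.5 and 53.9 CPM in young fat body (-0.34, -1.03 to 0.35, adjusted p = 0.394). Both Lam-RNAi libraries of these polymerase genes were below the young ones. Nop60B, Nopp140, pit and Tif-IA overlapped, with log2 changes between -0.07 and 0.07. When the 4 compared libraries were fitted without the old ones, 4 genes passed: Fib (0.32, adjusted p = 0.0281), nop5 (0.39, adjusted p = 0.00233) and mod (0.20, adjusted p = 0.0130) as higher and RpI1 (-0.33, adjusted p = 0.00245) as lower. Scaling by total counts alone moved the median of all genes by -0.17, and 34.9% of all calls were then higher, against 52.0%. Ovary and germ-line markers summed to 91598 to 111161 CPM in Lam-RNAi fat body, against 31713 to 32649 CPM in young fat body. Nearly all of these sums was the yolk protein genes, and the part of the list in the result was not tested.

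The 57 further genes did not move as a block in fat body either. In old fat body 4 rose (19.1% of all genes did) and 6 fell (19.0% of all genes), and in Lam-RNAi fat body 1 rose (18.5% of all genes) and 12 fell (17.1% of all genes). Rpb10, a small subunit shared by the RNA polymerases, had 14.6, 12.6 and 13.4 CPM in old fat body and 10.3 and 10.5 CPM in Lam-RNAi fat body, against 22.6 and 20.6 CPM in young fat body. It fell by 0.63 ± 0.10 (adjusted p = 0.00402) in old and by 1.04 ± 0.11 (adjusted p = 0.000934) in Lam-RNAi fat body, with no overlap between groups. CG18316 (udd, a polymerase I transcription factor), CG8801 and RpII18 also fell in old fat body, with log2 changes of -0.48, -0.47 and -0.39. In Lam-RNAi fat body CG4364, CG8801 and the helicase gene Dbp45A fell, with log2 changes of -0.66, -0.83 and -0.66, and 4 of the 5 shared polymerase subunits were among the 12. These counts rested on single libraries. In old fat body none rose and 1 fell without either young library, 15 rose without old replicate 1, 11 fell without old replicate 2, and none rose and 2 fell without old replicate 3. In Lam-RNAi fat body 3 to 5 fell and none rose when any of the 4 compared libraries was left out, and 25 fell and 7 rose when those 4 were fitted alone. The gene dm did not pass in old (-0.19, adjusted p = 0.374) or Lam-RNAi fat body (-0.53, adjusted p = 0.0575). It had 67.6, 102 and 85.2 CPM in old fat body and 71.9 and 64.9 CPM in Lam-RNAi fat body, against 100.3 and 99.0 CPM in young fat body.

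Between old and Lam-RNAi fat body no member passed, beside 14.7% of all genes (5.65% higher and 9.09% lower), and the log2 changes lay between -0.20 (Nop60B) and 0.32 (RpI135). No member had an unadjusted p below 0.05 in edgeR's test, DESeq2 called none, and the libraries of both groups overlapped for all 9. Without old fat body replicate 1 the count of members was 2. Scaling by total counts alone moved the median of all genes by 0.26 here, and 81.7% of all calls were then higher, against 38.3%.

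Whether the effects differ between tissues was tested in the fit of all 17 libraries, as the fat body change minus the midgut change. For age, 2 of the 9 genes were lower on this scale, beside 20.4% of all genes that were lower, 23.8% that were higher and 44.3% in either direction. These were Nop60B (-1.09 ± 0.25, adjusted p = 0.00392) and Tif-IA (-0.50 ± 0.13, adjusted p = 0.00709). RpI135 (-0.78, 95% interval -1.54 to -0.02, adjusted p = 0.0901), RpI1 (-0.60, -1.28 to 0.08) and pit (-0.51, -1.03 to 0.01) did not pass, and Fib, nop5, Nopp140 and mod lay between -0.22 and -0.03. Without old fat body replicate 2 the count was 5, with RpI135 (-1.04, adjusted p = 0.00957), RpI1 (-0.86, adjusted p = 0.00965) and pit (-0.67, adjusted p = 0.0167) added, and RpI135 also passed without old fat body replicate 1 (-0.51, adjusted p = 0.0253). For mod the sign turned with DESeq2 size factors (0.10).

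For Lam interference 4 of the 9 genes were lower, beside 22.5% of all genes that were lower and 46.7% that differed in either direction. Nop60B differed by -1.19 ± 0.27 (adjusted p = 0.00267), RpI135 by -1.21 ± 0.37 (adjusted p = 0.0160), RpI1 by -1.04 ± 0.33 (adjusted p = 0.0193) and Tif-IA by -0.67 ± 0.14 (adjusted p = 0.00130). RpI135 lost the call without young fat body replicate 1 (-1.06, adjusted p = 0.0692), Lam-RNAi fat body replicate 2 (-1.15, adjusted p = 0.0552) or young midgut replicate 1 (-1.06, adjusted p = 0.0680). RpI1 lost it without each of these (adjusted p = 0.0777, 0.0669 and 0.0680), and without young midgut replicate 2 (0.0527) or Lam-RNAi midgut replicate 2 (0.0592). Fib (-0.70, 95% interval -1.45 to 0.04), nop5, Nopp140, pit and mod did not pass. The count was 7 with scaling by total counts alone and 8 with the compared groups fitted alone. Of all calls 51.7% were higher, against 35.0% with total counts alone and 64.0% with DESeq2 size factors, which moved the median of all genes by -0.27 and 0.18. For the age effect DESeq2 size factors moved that median by 0.13 and the share of higher calls to 64.5%, against 53.8%.

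Of the 57 further genes, 27 were lower and none higher in the age difference, and 38 were lower and 1 (Mnt) higher in the Lam-RNAi difference, with medians of -0.53 and -0.88 against 0.02 and -0.01 over all genes. All 5 shared polymerase subunits were lower in both. The lower count for age became 43 without old fat body replicate 2, 17 without young midgut replicate 1 and 17 with the compared groups fitted alone. For dm the difference was -1.32 ± 0.22 (adjusted p = 0.000354) with age and -2.41 ± 0.23 (adjusted p = 3.10e-06) with Lam interference.

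Young fat body and young midgut were compared in the same fit. Of the 9 genes, 5 were higher in young fat body and none was lower. Over all genes tested 34.3% were higher and 35.0% lower, 69.3% in either direction. RpI135 had 21.2 and 18.7 CPM in young fat body, against 8.63 and 10.8 CPM in young midgut (1.03 ± 0.26, 2.04-fold, adjusted p = 0.00376). RpI1 had 58.5 and 53.9 CPM in young fat body, against 31.2 and 34.8 CPM in young midgut (0.77 ± 0.23, adjusted p = 0.0105). Both polymerase genes had separate groups. Nop60B had 69.7 and 68.1 CPM in young fat body, against 42.1 and 45.4 CPM in young midgut (0.66 ± 0.19, adjusted p = 0.00777). Tif-IA (0.50 ± 0.10, adjusted p = 0.000446) and Nopp140 (0.46 ± 0.15, adjusted p = 0.0156) were also higher, whereas Fib (-0.04), nop5 (0.05), mod (0.14) and pit (0.24) did not pass. The count was 2 without young midgut replicate 1, where Nop60B, Nopp140 and RpI1 no longer passed (adjusted p = 0.0532, 0.115 and 0.0694), and Nopp140 also lost the call without young fat body replicate 2 (adjusted p = 0.0640). Scaling by total counts alone moved the median of all genes by 0.46, and 68.1% of all calls were then higher, against 49.5%. Of the 57 further genes 30 were higher and 3 lower in young fat body, beside the same 34.3% and 35.0% of all genes. CG8801 had the largest difference of the 4 genes with the smallest p-values there (1.63 ± 0.13, adjusted p = 8.96e-08), with 1091 and 1073 CPM in young fat body, against 357 and 342 CPM in young midgut.

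The members were alike across the groups to different degrees. Over the 8 group means of log2 levels, Pearson's r between members, given as a description over points that share libraries, ran from 0.64 (Fib and RpI1) to 0.99 (Fib and nop5) over 36 pairs, with a median of 0.83. RpI135 was most like RpI1 (0.97) and Nop60B most like pit (0.97). Among 6913 genes with a mean log2 level of at least 3, those most like the mean profile of the 9 genes over the 8 groups were kz (0.986), CG3071 (0.985), CG13097 (0.983), CG12050 (0.979), CG8939 (0.979) and CG16833 (0.978). The 53 ranked genes of the wider list had a median r of 0.84, against -0.07 over all genes ranked.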

How the data were processed

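Poly-A RNA was purified from 17 dissected tissue samples and made into libraries with the TruSeq version 2 kit, per the labels' protocols. Each of the deposited files gives a raw, unnormalized count of reads per gene. Per the submitters' processing notes, CASAVA 1.8, TopHat2 and edgeR were used. The counting tool, strand setting, handling of multiply mapped reads and genome build are not given in the sources used here. Entries at 1 position with equal counts (15080 in all) were merged to 14095 loci, and 29 positions with unequal counts were left apart. At these depths the upper limit for a count of 0, 3 counts, is 0.038 to 0.095 CPM and covers counting error only.

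Samples were grouped by labelled tissue, age and interference. The test was edgeR 4.0.16's quasi-likelihood F test (robust) under R 4.3.3, after filterByExpr and TMM scaling. Benjamini-Hochberg adjustment ran over all genes with a threshold of 0.05. There was 1 fit per tissue (10866, 10220 and 9773 genes for fat body, midgut and whole gut) and 1 fit of all 17 libraries (11128 genes) for differences between tissues. Residual degrees of freedom were 4, 3, 2 and 9. Standard errors are the log2 change over the square root of F. Levels are counts-per-million of the TMM-scaled library size, except those of entries that overlap the members, which use total counts. Python 3.11.15, numpy 2.4.6, pandas 2.3.3 and matplotlib 3.10.9 were used, and tests were checked on simulated data.

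The members and lists were chosen with earlier results of these data known. Named genes are the 9 members, Lam and, per comparison, up to 4 of the 57 other pathway genes with the smallest p. The 57, like the members, form 8 lists of 66 entries, 12 of them matched by synonym. The 12 marker lists held 77 entries, 4 unmatched. Same-numbered samples did not deviate together, so no replicate block was used. Alternatives were DESeq2 1.42.0, its size factors, total counts alone, no count filter, a replicate block, other libraries in the fit and each replicate left out. A block with crossed old midgut numbers was added after the data were seen.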

Additional observations from a re-analysis of the deposited data

Results flagged for a closer look

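Each value here is a difference between tissues in the size of an effect, the fat body log2 change minus the midgut log2 change, that passed the test of the difference itself in edgeR's fit of all 17 libraries. With age, Nop60B differed by -1.09 and Tif-IA by -0.50, and of the other pathway genes Rpb10 differed by -1.26, CG18316 (udd) by -1.28, CG4364 by -0.95 and Dbp45A by -0.98. Nop60B and Tif-IA were 2 of the 9 members, beside 20.4% of all genes tested that were lower with age and 44.3% in either direction. With Lam interference, Nop60B differed by -1.19, RpI135 by -1.21, RpI1 by -1.04 and Tif-IA by -0.67, and CG4364 differed by -2.07, CG8801 (Non1) by -2.31, CG7686 (LTV1) by -1.28 and Nmd3 by -0.99. The members among them were 4 of the 9, beside 22.5% of all genes tested that were lower and 46.7% in either direction. CG8801 had 633 and 575 CPM in Lam-RNAi fat body, against 1091 and 1073 CPM in young fat body, and 889.7 and 1045 CPM in Lam-RNAi midgut, against 357 and 342 CPM in young midgut. Its fat body libraries fell where its midgut libraries rose. Rpb10 likewise had 14.6, 12.6 and 13.4 CPM in old fat body, against 22.6 and 20.6 CPM in young fat body, and 19.8 and 20.4 CPM in old midgut, against 13.6 and 13.2 CPM in young midgut. No group had the 4 or more samples needed to test a single library as an outlier.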

How the results depend on the processing

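The rises in Lam-RNAi midgut held for at least 8 of the 9 genes under every alternative tried, and the 53 wider-list rises ranged from 37 to 54 in old midgut and from 49 to 54 in Lam-RNAi midgut. Over all single-gene values, 1389 kept direction and side of the threshold, 35 gained and 73 lost a call and 34 turned sign. The cause of the changes was not tested. With all 17 libraries in the fit, members called were 4 in old midgut, 0 in old against Lam-RNAi midgut and 5 in old whole gut, genes called were 3199 between old and Lam-RNAi fat body (1602 in the tissue fit) and 1428 between old and Lam-RNAi midgut (3678), and Nopp140 in old fat body turned to -0.03. With the compared groups alone, members called were 4 in Lam-RNAi fat body, 4 in old against Lam-RNAi midgut and 8 in the Lam-RNAi difference between tissues, and genes called were 6603 in Lam-RNAi fat body (3875) and 868 between old and Lam-RNAi fat body. With total counts alone, members called were 4 in old against Lam-RNAi midgut and 7 in the Lam-RNAi difference, and genes called were 3155 between old and Lam-RNAi fat body and 6933 in old whole gut (4257). That scaling turned RpI1 to 0.04 and Tif-IA to 0.02 in old fat body, Nop60B to -0.13 and pit to -0.11 in Lam-RNAi fat body, Lam to 0.03 in Lam-RNAi midgut, and Fib to 0.41 in young fat body against midgut (0.04 with no count filter). DESeq2 called 2456 genes in old against Lam-RNAi fat body. For mod the difference between tissues turned to 0.10 with age and 0.09 with Lam interference under DESeq2 and under its size factors, and with age to 0.04 with total counts and 0.05 with the compared groups alone. The replicate block left 1685 genes in old fat body (4141), 2015 in Lam-RNAi fat body, 71 between old and Lam-RNAi fat body, 1 member in young fat body against midgut (Tif-IA; 5 without the block) and 2 in the Lam-RNAi difference (4), and turned RpI135 in old fat body to -0.04. Nothing in the labels pairs the numbers, and same-numbered deviations were correlated across genes by -0.125 to -0.008 within tissues and by -0.039 to 0.097 between fat body and midgut. With a replicate block in which the numbers of old midgut alone were crossed (added after seeing the data), 3784 genes and 3 members were called in old against Lam-RNAi midgut.

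With each replicate left out in turn, genes called ranged from 1960 to 5198 in old fat body, 1824 to 2057 in Lam-RNAi fat body, 205 to 3542 between old and Lam-RNAi fat body and 1493 to 3073 between old and Lam-RNAi midgut. Members called ranged from 0 to 4 in old fat body, 0 to 2 between old and Lam-RNAi fat body, 0 to 2 between old and Lam-RNAi midgut, 5 to 9 in old whole gut, 2 to 5 in young fat body against midgut, 2 to 5 in the age difference and 2 to 4 in the Lam-RNAi difference. Log2 changes that crossed 0 in old fat body were Nop60B (-0.34 to 0.04), Nopp140 (-0.14 to 0.14), pit (-0.06 to 0.28), RpI135 (-0.18 to 0.34) and RpI1 (-0.29 to 0.19), and in Lam-RNAi fat body Nop60B (-0.07 to 0.14), Nopp140 (-0.23 to 0.06) and pit (-0.02 to 0.12). Others were Fib (-0.12 to 0.13) and nop5 (-0.08 to 0.29) in young fat body against midgut, Fib (-0.46 to 0.03), nop5 (-0.50 to 0.12) and mod (-0.17 to 0.12) in the age difference, and mod (-0.15 to 0.00) in the Lam-RNAi difference. Where a left-out library leaves 1 in its group, that library is assumed to vary like the other groups. Depth limits RpI135 most, at 215 to 1306 counts per library.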

Other observations

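Old and Lam-RNAi midgut also differed in the 57 further genes. In old midgut 21 of them were lower and 3 higher than in Lam-RNAi midgut, against 18.9% lower and 17.1% higher over all genes tested. CG7686 (LTV1) had 72.6 and 63.3 CPM in old midgut, against 115 and 131 CPM in Lam-RNAi midgut (log2 change -0.83 ± 0.08, adjusted p = 0.000168 in edgeR's test). CG4364 had 189.8 and 167 CPM in old midgut, against 293 and 319.7 CPM in Lam-RNAi midgut (-0.75 ± 0.08, adjusted p = 0.000168). CG8801 differed by -0.87 and Mnt by 0.44. The 21 became 4 without Lam-RNAi midgut replicate 2, 5 without old midgut replicate 2, 8 without old midgut replicate 1, 12 with DESeq2 and 6 with all 17 libraries in the fit.

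Between old and Lam-RNAi fat body 5 of the 57 genes were higher in old fat body and none lower, against 5.65% and 9.09% of all genes. The genes with the smallest p were CG34186 (Polr2K, a subunit shared by the polymerases, 0.86), ns3 (0.41), CG4364 (0.37) and CG7686 (0.29). No gene of the 5 was called without old fat body replicate 3 or without either Lam-RNAi library, 17 were called without old fat body replicate 1 and 25 with scaling by total counts alone.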
